A study of Mus musculus with 2 samples.

Results

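A chromatin interaction can disappear from a list of calls with an end that is no longer part of any called interaction, or while both of its ends stay in use. The interactions described here are of the second kind. Each was called in microglia of sham-operated mice, was absent as a pair from the calls at day 6 after experimental stroke, and had both of its ends, called anchors, in at least 1 other called interaction at day 6. They are called kept-anchor pairs. They were chosen by presence and absence in the authors' lists, so their absence at day 6 is not a finding. There were 11689 of them among 19061 sham interactions, 61.3% (95% exact binomial interval 60.6 to 62.0%). Another 4698 sham interactions (24.6%) were in both lists, and 2674 (14.0%) were missing at day 6 with at least 1 anchor lost.

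The assay was HiChIP for acetylated lysine 27 of histone H3 (H3K27ac), a mark of active promoters and enhancers. HiChIP ligates and sequences pieces of DNA that lie close together in chromatin carrying the mark. The cells were brain microglia sorted for intermediate CD45 and intermediate CD11b from wild-type male C57BL/6J mice aged 8 to 24 weeks. In the day 6 group the middle cerebral artery had been occluded (MCAO) for 60 min and then reperfused, and the sham group had the surgery without the occlusion. Between 200000 and 300000 cells of the sham-operated or ischemic hemisphere went into a library, and there was 1 library per group. How many animals were pooled for a library the sources used here do not give. No difference below therefore has a replicate check, and no test between the conditions was possible.

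The sham calls comprised 501608 contacts and the day 6 calls 1074041 contacts in 42905 interactions. The contacts modelled by the authors' caller ran the other way, at 3629250 in sham and 2258259 at day 6, a ratio of 0.622. The number of sequenced read pairs is not analysed here. Of 30 genes listed for homeostatic microglia, 29 had a sham interaction and 29 a day 6 interaction. Marker genes of other brain or blood cells had sham interactions for 5 of 15 genes of monocytes and border macrophages, 2 of 11 of neutrophils, 4 of 13 of lymphocytes, 4 of 15 of neurons, 4 of 11 of astrocytes, 7 of 12 of the oligodendrocyte lineage and 8 of 13 of endothelial and mural cells. At day 6 these counts were 9, 4, 7, 5, 7, 7 and 9. Summed over these marker genes they were 34 in sham and 48 at day 6, beside 9417 and 13423 of all protein-coding genes, 142.5% as many. The part of other cells in the pairs that were lost was not tested.

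Microglia are the resident macrophages of the brain. Their identity genes, among them the purine receptor P2ry12, the fractalkine receptor Cx3cr1 and the transcription factor Sall1, depend on distal enhancers that reach their promoters through chromatin loops. Enhancers in such a cell are opened largely by the lineage factor PU.1, and acetylation of H3K27 marks those that are in use. After injury microglia lower many identity genes and raise genes of inflammation, lipid handling and repair. An enhancer can also keep its acetylation and change its partner.

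Some of the kept-anchor pairs with the strongest evidence in sham had an annotated promoter at an anchor. Over all kept-anchor pairs, a protein-coding promoter lay at both ends of 10.6%, at 1 end of 32.8% and at no end of 56.6%. Among the 10 kept-anchor pairs of smallest sham q-value (the caller's p-value after correction for the number of pairs tested), 4 had an anchor with a protein-coding promoter, and 1 of these had promoters at both anchors. The 250 bases before the transcription start of these 5 promoters are printed 5′ to 3′ on the gene's strand, from RefSeq with the coordinates of GRCm38, because these are the named ends of the pairs that the rest of the text returns to. Capitals mark matches, on either strand, to the GC box GGGCGG of the SP and KLF factors and to the MEF2 motif, which is CTA and TAG with any 4 bases between.
Cep70, chr9:99243091-99243340, plus strand: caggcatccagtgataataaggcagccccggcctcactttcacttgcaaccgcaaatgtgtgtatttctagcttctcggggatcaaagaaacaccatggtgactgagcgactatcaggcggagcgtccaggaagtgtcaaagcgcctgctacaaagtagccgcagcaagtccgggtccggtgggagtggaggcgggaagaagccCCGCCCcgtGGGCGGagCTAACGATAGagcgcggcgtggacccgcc
Gprc5b, chr7:118995212-118995461, minus strand: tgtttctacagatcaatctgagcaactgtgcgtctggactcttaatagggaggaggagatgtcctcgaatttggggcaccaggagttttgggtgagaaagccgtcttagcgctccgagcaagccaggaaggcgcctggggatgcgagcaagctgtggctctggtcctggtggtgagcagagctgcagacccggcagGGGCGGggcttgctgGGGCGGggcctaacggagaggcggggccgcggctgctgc
1600014C23Rik, chr17:45733845-45734094, minus strand: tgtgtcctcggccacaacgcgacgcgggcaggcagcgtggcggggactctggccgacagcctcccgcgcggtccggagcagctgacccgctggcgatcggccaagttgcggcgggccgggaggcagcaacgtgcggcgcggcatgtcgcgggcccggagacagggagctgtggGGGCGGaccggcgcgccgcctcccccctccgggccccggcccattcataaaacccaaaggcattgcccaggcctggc
Vegfa, chr17:46032378-46032627, minus strand: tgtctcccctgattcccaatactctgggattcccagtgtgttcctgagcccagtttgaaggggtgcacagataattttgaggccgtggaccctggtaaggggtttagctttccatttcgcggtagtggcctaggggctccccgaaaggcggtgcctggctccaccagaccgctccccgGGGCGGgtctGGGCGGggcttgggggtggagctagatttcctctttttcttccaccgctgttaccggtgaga
Fam43a, chr16:30599473-30599722, plus strand: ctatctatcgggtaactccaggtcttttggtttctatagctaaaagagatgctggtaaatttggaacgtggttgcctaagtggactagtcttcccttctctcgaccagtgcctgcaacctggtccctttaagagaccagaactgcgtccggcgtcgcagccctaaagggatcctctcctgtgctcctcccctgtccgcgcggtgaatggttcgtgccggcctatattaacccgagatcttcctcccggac

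Capitals appear in 4 of the 5 sequences. Cep70 held 2 GC boxes and a MEF2 match, Gprc5b and Vegfa held 2 GC boxes each, and 1600014C23Rik held 1. None of the motifs searched was found in the window of Fam43a. GC content was 74.8% in the window of 1600014C23Rik and 53.6% in that of Fam43a. Windows of 300 bases, from 250 before to 50 after the start, were searched for motifs. Motif shares in bins of kept-anchor pairs were close to those in bins of pairs found in both lists. These sets of bins overlap, which fixes part of the likeness. Of 13670 anchors of kept-anchor pairs, 4404 also had a pair found in both lists, and such pairs had 6532 anchors in all. The GC box was found in 63.4% of 5052 promoters in those bins, in 62.4% of 2521 promoters in bins of pairs found in both lists, and in 46.2% of all 21263 protein-coding promoters. A core of the CTCF motif, CCNCNN followed by GGNGGC, was found in 6.53%, 6.39% and 4.78%, the YY1 motif AAGATGGC in 4.81%, 4.60% and 3.05%, and the AP-1 motif TGANTCA in 4.59%, 4.52% and 6.99%. The PU.1 motif GAGGAAGT was found in 3.23%, 3.49% and 3.13%, and the MEF2 motif in 3.07%, 3.21% and 3.47%. Both strands were searched, and a match is a description of letters, not of binding. Median GC content was 60.7% in promoters of kept-anchor bins, 61.0% for pairs in both lists and 56.3% over all promoters.

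By contacts and q-value kept-anchor pairs were weaker than the pairs found in both lists, and they were longer. Their ratio of observed to expected contacts was higher. In sham they had a median of 21 contacts (interquartile range 15 to 29), against 29 contacts (21 to 43) for pairs in both lists and 17 (13 to 23) for pairs with a lost anchor. Median distance was 160 kb (80 to 300) against 100 kb (50 to 180) and 190 kb (90 to 350). Kept-anchor pairs thus lay between the other classes. Their median −log10 q was 4.39, against 5.46 for pairs in both lists and 4.22 for pairs with a lost anchor. The ratio of observed to expected contacts, which the caller computes for the distance and the coverage of both anchors, had a median of 4.25 in kept-anchor pairs, 3.72 in pairs in both lists and 4.87 in pairs with a lost anchor.

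The share of kept-anchor pairs rose with distance and fell with strength, taken as −log10 of the sham q-value. They made up 51.0% of sham interactions under 50 kb, 59.7% of those of 50 to 200 kb, 66.7% of those of 200 kb to 1 Mb and 70.6% (66.5 to 74.5%) of those of 1 to 2 Mb. The pairs in both lists went from 38.7% to 4.84% over the same classes. By strength, kept-anchor pairs were 65.3% of sham interactions with −log10 q of 3 to 5, 59.0% of those of 5 to 10, 46.7% of those of 10 to 20 and 24.7% (18.7 to 31.6%) of those over 20. In the last group 46 of 186 interactions were kept-anchor pairs and 128 were in both lists.

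**Figure D1:**
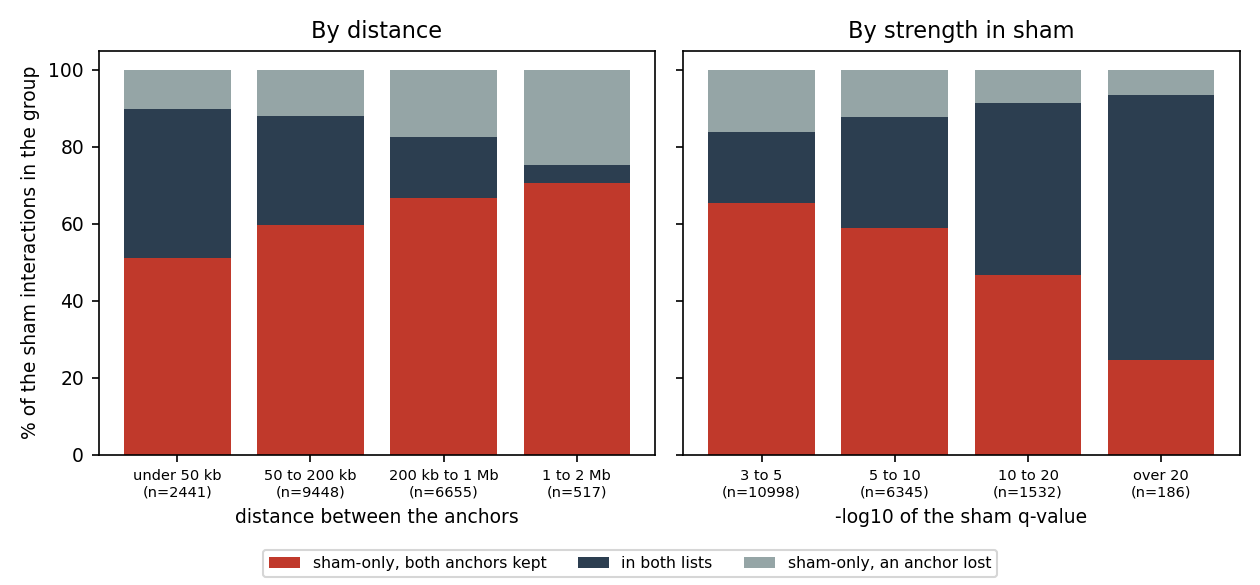
Sham interactions divided by distance between the anchors (left) and by −log10 of the sham q-value (right); bars are stacked percentages of kept-anchor pairs (red), pairs in both lists (dark) and pairs with a lost anchor (grey), with the number of sham interactions under each bar. The red part grows from 51.0% to 70.6% with distance and shrinks from 65.3% to 24.7% with strength.

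How low a kept-anchor pair was at day 6 could be bounded. A pair that was tested at day 6 and is missing from the list had fewer contacts than the smallest number the caller would have called at that distance and anchor coverage, its call limit. The limit was rebuilt from the deposited day 6 rows. Whether each missing pair was among the pairs tested cannot be read from the lists. The deposited values imply 434035 tested pairs at day 6 and 876279 in sham. All 11689 kept-anchor pairs had the day 6 peak flag of the list at both anchors, as did all 42905 called day 6 interactions. Each statement of at most a number of contacts at day 6 rests on the pair having been tested, or on its having had no contact. The limit for kept-anchor pairs had a median of 15 contacts (13 to 19), and 1 contact below the limit is the highest count that a missing pair can have had, called the day 6 bound. The bound says nothing about how far below it the count was.

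The sham count itself would have been called at day 6 for 89.1% (88.6 to 89.7%) of kept-anchor pairs, without any scaling for depth. After multiplication by 0.622, the ratio of modelled contacts, 18.3% (17.6 to 19.0%) would have been called. Most kept-anchor pairs were also close to the limit in sham, where 60.9% had between 0 and 3 contacts more than were needed there. The median margin over the sham limit was 2 contacts. Pairs in both lists had a median margin of 5 over the sham limit, with 39.2% within 0 to 3. At the edge of the rule, the kept-anchor pair of largest sham q-value had 15 contacts in sham against a day 6 limit of 17. The pair in both lists of largest day 6 q-value had 27 contacts in sham and 21 at day 6.

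Counting error separated fewer of them. The lower end of the 95% Poisson interval of the sham count was above the day 6 bound in 3522 kept-anchor pairs, which is 30.1% (29.3 to 31.0%) of them and 21.5% of the 16387 sham interactions with both anchors kept. With the sham limit scaled by 0.622 this held for 413 pairs, 3.53% (3.21 to 3.88%) of kept-anchor pairs and 2.52% of the 16387. These 413 are called clearly lower pairs, in the sense of this count alone. The rule used the same contrast, so the shares are a description. Clearly lower pairs had a median of 41 contacts in sham against a median bound of 15, and a median distance of 90 kb. They made up 7.87% of kept-anchor pairs under 50 kb, 4.17% at 50 to 200 kb and 1.80% at 200 kb to 1 Mb. At 1 to 2 Mb they were 0 of 365 (95% interval up to 1.01%). The level of the counts sets part of this trend, so it is no rate of loss by distance. Median sham contacts in these classes were 43, 24, 15 and 11, against median day 6 limits of 28, 17, 14 and 12. A long pair with a count near its limit could not qualify. Such intervals speak of counting error alone, and PCR copies of a molecule, which carry no identifier here, may be counted more than once. Sham counts that were called are also high by selection.

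**Figure D2:**
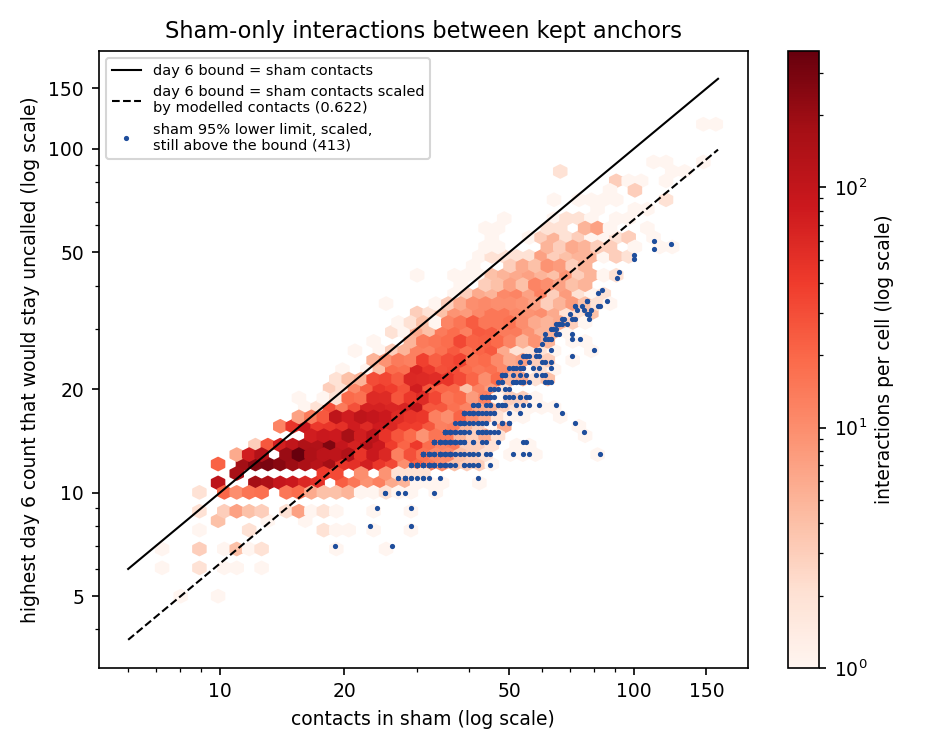
Contacts in sham (x axis) against the highest day 6 count that would stay uncalled (y axis), both on log scales, for the 11689 kept-anchor pairs; colour gives the number of pairs in a cell, and blue points are the 413 pairs whose scaled lower Poisson limit is above the bound. Most pairs lie under the solid line of equal counts (89.1%) and above the dashed line scaled by 0.622.

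A day 6 interaction ran close to many kept-anchor pairs. In 48.1% of them (5624 pairs) a day 6 pair had both ends within 1 bin of 10 kb, beside 23.1% (21.5 to 24.7%) of pairs with a lost anchor. The rule itself sets part of this contrast, since it requires day 6 interactions at both bins of a kept-anchor pair and their absence at a bin of the others, so it is a description. The share was 66.8% within 2 bins, 76.7% within 3 and 86.9% within 5, and 1537 kept-anchor pairs (13.1%) had none within 5 bins. Of the 5624, 81.3% had one that used 1 of the same anchors. In 64.1% the near day 6 pair with the most contacts had at least as many as the sham pair. This takes the highest of all near pairs, not a match of 1 to 1. In 53.3% all near pairs were called at day 6 alone. The near share fell with distance, from 67.5% under 50 kb to 58.0%, 33.1% and 10.7% (7.71 to 14.3%) in the longer classes. Neighbouring bins were often called together within a list as well: 48.7% of sham and 29.7% of day 6 interactions had another of the same list within 1 bin. Of the 413 clearly lower pairs, 127 (30.8%) had no day 6 pair within 1 bin and 62 of the 413 had none within 2.

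**Figure D3:**
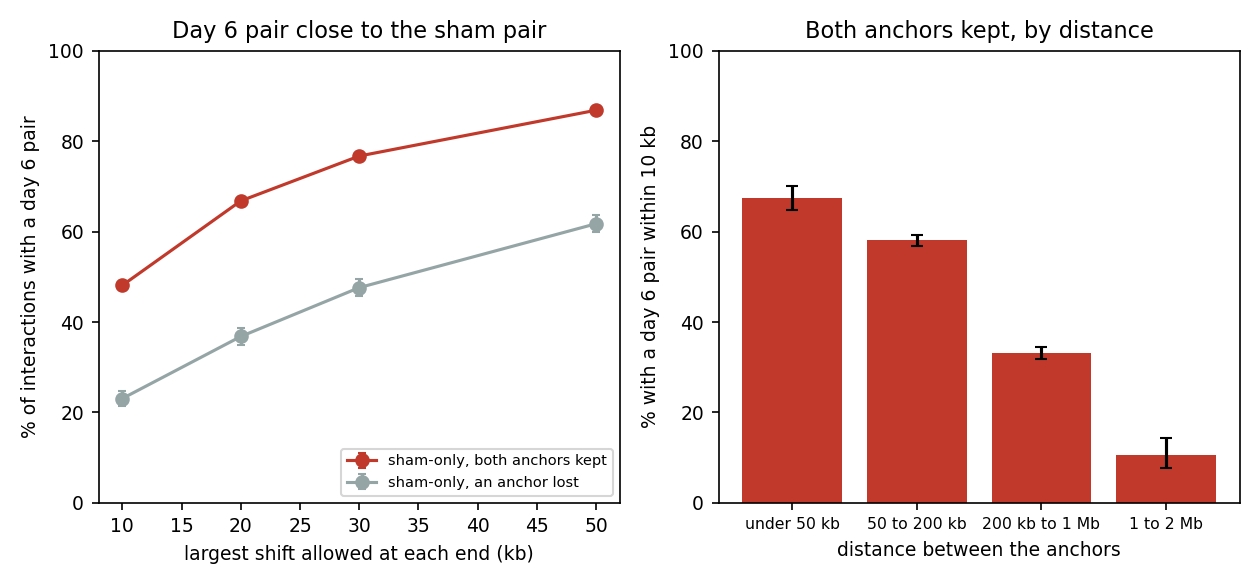
Left, percentage of sham-only interactions with a day 6 pair whose ends both lie within the distance on the x axis, for kept-anchor pairs (red) and pairs with a lost anchor (grey). Right, the same within 10 kb for kept-anchor pairs by distance between the anchors; bars and points carry 95% exact binomial intervals. The red line is above the grey line at each of the 4 shifts, a contrast that the rule sets in part, and the share falls from 67.5% to 10.7% with distance.

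At the median, the anchors of kept-anchor pairs had nearly the same relative coverage in both libraries. The scaling of each library by its own constant sets part of this. Single anchors differed, and the log2 ratio described next had an interquartile range of −0.26 to 0.22. The 13670 anchors had a median log2 ratio of relative coverage (reads on a bin over a constant of the library), day 6 over sham, of −0.03 (SD 0.36 over anchors). It was 0.05 at anchors of pairs in both lists and −0.08 at the retained anchors of pairs with a lost anchor. Relative coverage was at least 2-fold lower at day 6 in 15 anchors and at least 2-fold higher in 98, 0.110% and 0.717%. Over all 16670 anchors that the lists have in common these shares were 0.102% and 0.774%. The 13670 are part of the 16670, so the shares cannot differ much. At the anchors of the clearly lower pairs the median log2 ratio was −0.18. Their choice sets part of this value, because the day 6 bound is computed from day 6 coverage and falls with it.

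Each of these anchors had a mean of 2.29 interactions in sham and 3.31 at day 6. The rule fixes part of this, since an anchor without a day 6 interaction cannot enter, and anchors of pairs with a lost anchor had means of 1.89 and 1.40. There were more at day 6 on 55.7% of the anchors and fewer on 18.8%. The day 6 list is the longer one, and over all sham anchors, those without a day 6 interaction included, the means were 2.02 and 2.90. Of 31823 day 6 interactions on anchors of kept-anchor pairs, 13.1% were also in the sham list, 44.7% joined 2 sham anchors that had not been called together in sham, and 42.2% led to a bin that was no sham anchor. In 31.9% (31.1 to 32.8%) of kept-anchor pairs both anchors had a day 6 partner bin in common, compared with 39.0% of pairs in both lists.

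A gene lay at both ends of 60.1% of kept-anchor pairs and at 1 end of 31.7%, counting a protein-coding gene with 1 kb on each side. The share with genes at both ends was 61.4% for pairs in both lists and 52.8% for pairs with a lost anchor. Promoters lay at both ends of 10.6%, 11.5% and 5.61%. The anchors of a kept-anchor pair were on 1 and the same gene in 13.6%, against 19.6% of pairs in both lists. At least 1 kept-anchor pair was found on 7471 of 9417 genes with a sham interaction, 79.3%.

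The strongest interaction of the whole sham list was a kept-anchor pair. It joined Pik3cb, which encodes a catalytic subunit of phosphoinositide 3-kinase, to the promoter of Cep70, a gene of a centrosomal protein (chr9:99060001-99070000 and chr9:99240001-99250000, 180 kb apart). It had 83 contacts in sham (95% Poisson interval 66.1 to 103), 20.4 times the expected count (q-value 1.5e-70), and at most 13 at day 6. The counts do not overlap, with the sham interval far above the bound. A day 6 pair 1 bin away, at the Cep70 end, had 13 contacts. In sham itself the neighbouring bins were also far lower, with 15 contacts in the only other called pair within 1 bin. Relative coverage went from 0.922 to 0.706 at the Pik3cb bin and from 1.17 to 1.06 at the Cep70 bin. Pik3cb and Cep70 were joined by 11 sham interactions, of which 8 were kept-anchor pairs, and by 10 at day 6. Summed over these called pairs the contacts were 322 in sham and 344 at day 6. At day 6 the most contacts between both genes were 58 in a pair of bins.

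The same picture of a single strong pair of bins held at Gprc5b. Its promoter, an orphan G protein-coupled receptor gene, was joined to Vps35l, which encodes a part of an endosomal recycling complex, 230 kb away (chr7:118760001-118770000 and chr7:118990001-119000000). The pair had 56 contacts in sham (42.3 to 72.7) and at most 13 at day 6. No other sham pair and no day 6 pair lay within 1 bin of it. Relative coverage was 1.27 in sham and 1.37 at day 6 at the Gprc5b bin, and 0.886 and 0.816 at the Vps35l bin.

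**Figure D4:**
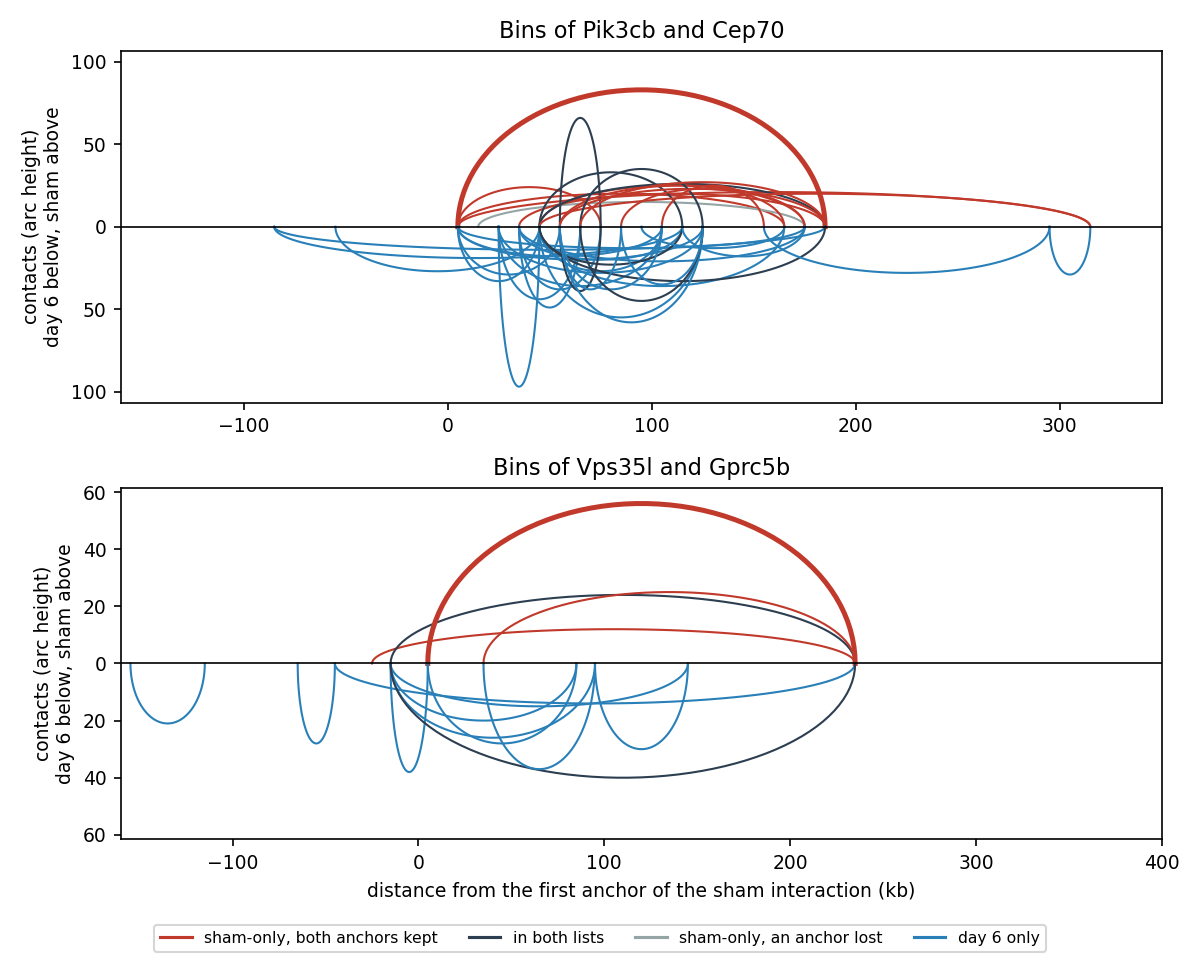
Called interactions around the Pik3cb and Cep70 bins (top) and the Vps35l and Gprc5b bins (bottom); the x axis is the distance in kb from the first anchor of the sham pair, arc height is the number of contacts, sham arcs point up and day 6 arcs down, and colour gives the class. The thick red arcs of 83 and 56 contacts have no day 6 arc between the same bins.

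Vegfa, the gene of the main vascular growth factor, was joined in sham to the promoter of 1600014C23Rik, 300 kb away (chr17:45730001-45740000 and chr17:46030001-46040000). This was the pair with a promoter at both anchors. It had 42 contacts in sham (30.3 to 56.8) and at most 12 at day 6, and a day 6 pair 1 bin away had 14. Relative coverage at the 1600014C23Rik bin was 0.869 in sham and 0.595 at day 6, while at the Vegfa bin it was 0.955 and 1.03. Both sham interactions on Vegfa were kept-anchor pairs, with 63 contacts in all, and the gene had 4 interactions with 71 contacts at day 6.

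A bin beside Fcrls, a scavenger receptor gene that marks microglia, was joined to Fcrl5, a relative of Fcrls, by 51 contacts in sham (38.0 to 67.1). At day 6 the pair had at most 13 (chr3:87240001-87250000 and chr3:87500001-87510000, 260 kb). The first bin holds no base of Fcrls, whose lowest coordinate is chr3:87250736, and counts for it through the 1 kb on each side. From the same bin a pair with Etv3 had 39 contacts in sham and at most 15. The day 6 pair 1 bin beside the Fcrl5 pair had 22 contacts and was in the sham list too. The genes are of 1 family, and the part of sequence similarity in these contacts was not tested. On all of Fcrls there were 16 sham interactions, 6 of them kept-anchor pairs, 3 in both lists and 7 with a lost anchor.

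Of the other 6 of the 10 strongest, 5 are described here, with 39 to 72 contacts in sham and at most 12 to 16 at day 6. Polr1a, the gene of the largest subunit of RNA polymerase I, had a pair of 54 contacts in sham with a bin 240 kb away, and at most 13 at day 6. Ifitm10, of the family of interferon-induced transmembrane proteins, was joined over 110 kb to a bin with Syt8 and Tnni2 by 72 contacts, with at most 16 at day 6. Relative coverage of both bins was lower at day 6, from 1.25 to 0.906 and from 1.73 to 1.28. Fam43a and Xxylt1, the latter a xylosyltransferase gene, were joined over 370 kb by 40 contacts, with at most 13. Here a day 6 pair shifted by 1 bin at both ends had 37 contacts, nearly the sham count. Ttf2, a gene of transcription termination, had 39 contacts with a bin 320 kb away and at most 12 at day 6. The remaining pair joined 2 bins without a protein-coding gene (chr5:64370001-64380000 and chr5:64790001-64800000), with 41 contacts in sham and at most 13 at day 6, beside a near day 6 pair of 30.

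Among the 10 strongest kept-anchor pairs with no day 6 pair within 1 bin, 3 have been named, those of Gprc5b, Ifitm10 and Ttf2. The other 7 had between 34 and 67 contacts in sham and at most 12 to 18 at day 6. The promoter bin of Echdc3 was joined to Usp6nl, a gene of a GTPase-activating protein of endosomal traffic, by 44 contacts and at most 13 at day 6. A bin of Il20rb, which encodes a chain of receptors for cytokines of the interleukin-20 group, had 2 of the 7, with Ppp2r3a over 700 kb (34 contacts and at most 12) and with Stag1 over 460 kb (35 and at most 12). Relative coverage of the Il20rb bin was 1.73 in sham and 1.88 at day 6, that of the Ppp2r3a bin 0.992 and 0.792, and that of the Stag1 bin 0.837 and 0.758. Nav1, the gene of a microtubule-associated protein named neuron navigator, had 56 contacts within the gene over 120 kb, with at most 18 at day 6. Atp5o, a subunit gene of the mitochondrial ATP synthase, had 36 contacts and at most 13, and relative coverage of its bin was 1.39 in sham and 1.96 at day 6, while that of the other anchor was 0.842 and 0.678. The zinc finger gene Zfp629 had 67 contacts over 20 kb and at most 17. Ice1, whose product takes part in the transcription of small nuclear RNA genes, had 36 and at most 13.

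Pairs on homeostatic genes of microglia included kept-anchor pairs of high sham counts beside many pairs found in both lists. Of 311 sham interactions on the listed genes, 168 were kept-anchor pairs, 54.0% (48.3 to 59.7%), beside 61.2% over all 17510 sham interactions on protein-coding genes. The share was above that of all genes instead with a q-value limit of 1e-05 for both lists (52.0% beside 46.4%) and after cutting the day 6 calls to as many as in sham (53.4% beside 43.9%). Pairs in both lists were 39.5% here (34.1 to 45.2%) and 25.0% over all genes, a difference that was not tested. Of the 168, 14 were clearly lower at day 6, 8.33% (4.63 to 13.6%), beside 3.44% of the kept-anchor pairs on all genes. These 14 were on Cx3cr1, Gpr34, Fcrls (by the bin beside it), Entpd1, Bin1 and Itgb5, with 2 pairs each, and on Rhob and Slco2b1, with 1 each. Of them 9 had a day 6 pair within 1 bin. With the unscaled count 85 of the 168 (50.6%) were lower at day 6, beside 29.7% of kept-anchor pairs on all genes. The kept-anchor pairs of this list had a mean of 29.8 contacts in sham and those of all genes 24.4, and the part of this difference in the shares was not tested.

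At Cx3cr1, the fractalkine receptor gene, 8 sham interactions divided into 4 kept-anchor pairs and 4 in both lists. The gene's bin at chr9:120060001-120070000 was joined to a bin of Xirp1 40 kb away by 61 contacts (46.7 to 78.4) in sham and by at most 24 at day 6. A pair from the other end of the gene had 45 contacts in sham and at most 18. The other 2 had 21 and 20 contacts against a bound of 16. The gene had 11 interactions at day 6, with 360 contacts in all, close to its 377 in sham.

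P2ry12, the purine receptor gene that is widely used as a marker of homeostatic microglia, had kept-anchor pairs at both short and very long range. It lies within Med12l, so its bins are bins of that gene too. The bin at chr3:59210001-59220000 also holds P2ry13. Of its 19 sham interactions 16 were kept-anchor pairs and 3 were in both lists. Between bins of the gene 4 kept-anchor pairs of 20 to 50 kb had 70 to 81 contacts in sham, against day 6 bounds of 36 to 51. Those of 80 and 81 contacts ended on the bin with P2ry13. All 4 were lower at day 6 beyond unscaled counting error, but none of the 16 was clearly lower after scaling. At day 6, 2 interactions of 48 and 59 contacts were called between these bins. At long range, 10 sham interactions joined P2ry12 to Mbnl1, the gene of a splicing regulator. Of these 9 were kept-anchor pairs, 1220 to 1350 kb long, with 10 to 15 contacts in sham and bounds of 11 to 12. At day 6 the same genes were joined by 7 interactions of 13 to 35 contacts. A single pair of bins was in both lists, with 15 contacts in sham and 13 at day 6. Summed over all called pairs of these genes the contacts were 127 in the 10 sham interactions and 123 in the 7 at day 6.

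Sall1, which encodes a transcription factor needed for microglial identity, had 14 sham interactions. All but 1 ran to a window of 300 kb at higher coordinates (chr8:89280001-89580000). In that window 7 were kept-anchor pairs of 12 to 28 contacts, with bounds of 12 to 15, and 6 were in both lists. At day 6 there were 9 interactions of 14 to 27 contacts between the gene and the window, and 6 of the 7 kept-anchor pairs had a day 6 pair within 1 bin. Csf1r, the receptor gene for the growth factor on which microglia survive, had 6 kept-anchor pairs and 2 pairs in both lists. The 6 had 13 to 21 contacts and ran 270 to 350 kb towards Cd74, Ndst1, Rps14 and Tcof1. For none of the 6 was the sham count above the day 6 bound beyond counting error, even unscaled. How far below the bound the day 6 counts were is not known. Tmem119, a microglial membrane protein gene, had 2 kept-anchor pairs of 13 and 19 contacts and 2 pairs in both lists.

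Other listed genes with clearly lower pairs were Gpr34, Entpd1 and Bin1. Gpr34, a lysophospholipid receptor gene within Cask, had pairs of 34 and 35 contacts in sham, with at most 13 and 14 at day 6. Entpd1, which encodes the enzyme CD39 that breaks down extracellular ATP, had pairs of 42 and 46 contacts against at most 17, and no day 6 pair ran within 1 bin of either. Bin1, a gene of membrane curvature, had 54 and 42 contacts with the same bin 120 and 130 kb away, against at most 18 and 16, again without a near day 6 pair. The integrin gene Itgb5 had the most kept-anchor pairs of the list, 19 of 32 sham interactions, and 16 of the 19 had a near day 6 pair. Tgfbr1, a receptor gene for TGF-beta, had 13 of 22, and 10 of the 13 had one.

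**Figure D5:**
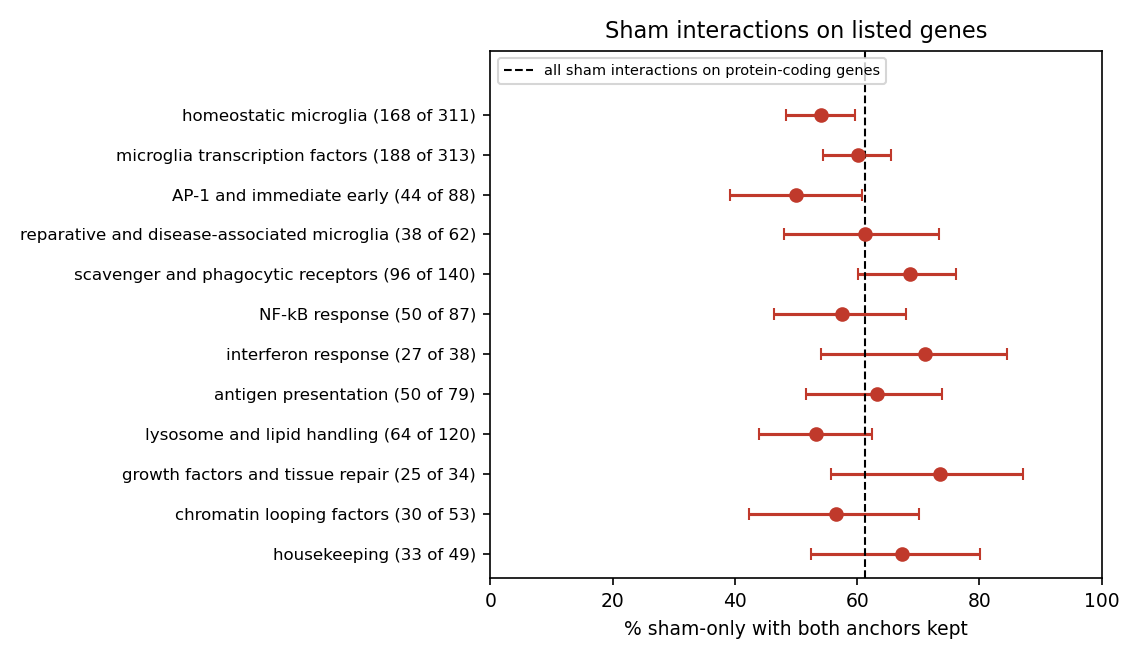
Percentage of the sham interactions on each gene list that were kept-anchor pairs (points) with 95% exact binomial intervals (bars); the dashed line is the 61.2% over all sham interactions on protein-coding genes, and labels give the counts. The interval of the homeostatic list (48.3 to 59.7%) and that of the AP-1 list (39.1 to 60.9%) lie below the line. The bars treat interactions as independent, though many share a gene or bins, and do not measure spread between libraries. With a q-value limit of 1e-05 for both lists the homeostatic share was above that of all genes (52.0% beside 46.4%). The AP-1 share was below it (35.9%).

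On the transcription factor genes of microglia 188 of 313 sham interactions were kept-anchor pairs, 60.1% beside 61.2% over all genes. Pairs in both lists were 32.9% here beside 25.0%, and pairs with a lost anchor 7.03% beside 13.8%. Only 1 of the 188 was clearly lower at day 6, 0.532% (0.0135 to 2.93%), beside 3.44% of the kept-anchor pairs on all genes. Mef2a, of the MEF2 family of activity-dependent factors, had 31 of 44, of which 17 ran to the neighbouring gene Lrrc28 with 12 to 26 contacts. At day 6 there were 16 interactions between Mef2a and Lrrc28, of 16 to 123 contacts, while 22 had been called in sham. Runx1, which encodes a factor of myeloid development, had 18 of 24, and 17 of them led to a window of 510 kb beyond the gene (chr16:92950001-93460000). In that window 23 sham and 18 day 6 interactions were called. Smad3, a mediator of TGF-beta signals, had 18 of 25. Spi1, the gene of PU.1, had 6 of 10, with 3 in both lists. Its strongest kept-anchor pair had 51 contacts over 40 kb, with at most 30 at day 6. The 1 clearly lower pair of the list was in Mef2c, with 66 contacts over 50 kb and at most 31 at day 6.

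AP-1 and immediate early genes, which are induced within minutes by stimuli and by tissue handling, had 44 kept-anchor pairs among 88 (50.0%, 39.1 to 60.9%) and 45.5% in both lists. With a q-value limit of 1e-05 for both lists the kept-anchor share was 35.9%, beside 46.4% over all genes. After cutting the day 6 calls to as many as in sham it was 44.3%, beside 43.9%. Jun had 3 kept-anchor pairs among 13 sham interactions and 9 in both lists. Its kept-anchor pairs had 31, 21 and 15 contacts, with bounds of 21, 17 and 12. Egr2 had 7 of 11 and Dusp6, a phosphatase gene of the ERK pathway, had 5 of 13. All 5 sham interactions on Jund were kept-anchor pairs, and 3 of their sham counts, 88, 22 and 16, were above the day 6 bounds of 82, 20 and 12. The other 2 were 15 against a bound of 15 and 23 against 27. The 1 clearly lower pair of the list was at Dusp1, with 41 contacts and at most 18.

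Interferon genes had 27 kept-anchor pairs among 38 sham interactions (71.1%), growth factor and repair genes 25 among 34 (73.5%), and scavenger and phagocytic receptors 96 among 140 (68.6%). The intervals of the first 2 held the 61.2% of all genes (54.1 to 84.6% and 55.6 to 87.1%), and that of the receptors, 60.2 to 76.1%, did so as well. With a q-value limit of 1e-05 for both lists the interferon share was 28.6%, beside 46.4% over all genes, and with day 6 calls cut to the sham number it was 39.5%, beside 43.9%. At the same settings growth factor and repair genes had 53.8% and 58.8%, and scavenger and phagocytic receptors 63.9% and 60.7%. Mertk, which encodes a receptor for the uptake of dying cells, had 12 of 21. Lrp1, a large endocytic receptor gene, had 12 of 14 and Scarb2, of lysosomal membranes, 10 of 13. The interferon gene Dhx58 had 5 of 7. All 5 sham interactions on Tgfb1, the gene of TGF-beta 1, were kept-anchor pairs, with 167 contacts in sham beside a summed bound of 176, and the gene had 12 interactions at day 6. Thbs1, a matrix protein gene, had a clearly lower pair of 38 contacts with at most 14.

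Genes of the NF-kB response had 50 kept-anchor pairs among 87 (57.5%). Il1a and Il1b, the genes of both interleukin-1 cytokines, were joined by 69 contacts over 60 kb in sham (53.7 to 87.3) and by at most 31 at day 6 (chr2:129310001-129320000 and chr2:129370001-129380000). At day 6 the genes were joined by 2 interactions of 32 and 46 contacts, of which 1 was in both lists. Tnfaip3 and Nfkbia, inhibitors of NF-kB, had clearly lower pairs of 36 and 35 contacts, each with at most 15 at day 6. Nfkb1 had 7 of 8 and Tnf 5 of 7.

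Disease-associated genes had 38 kept-anchor pairs among 62 (61.3%), antigen presentation 50 among 79 (63.3%), lysosome and lipid handling 64 among 120 (53.3%), looping factors 30 among 53 (56.6%) and housekeeping genes 33 among 49 (67.3%). At a q-value limit of 1e-05 for both lists the housekeeping share was 27.8% and that of disease-associated genes 38.1%, beside 46.4% over all genes. At that limit it was 38.3% for lysosome and lipid handling, 47.8% for looping factors and 63.9% for antigen presentation. Cd9, a tetraspanin gene, had 1 clearly lower pair of 91 contacts over 20 kb within the gene, with at most 42 at day 6. The MHC class II genes Cd74 and H2-DMa had 7 of 10 and 6 of 9, and H2-Eb1 a clearly lower pair of 44 contacts with at most 18. Ctss, which encodes a protease of antigen processing, had 6 of 8. Tfe3 and Nr1h3, factors of lysosomal and lipid genes, had 8 of 14 and 7 of 8. Nipbl, which loads cohesin, had 5 of 6 and the zinc finger gene Zfp384 5 of 8. Tubb5, of beta-tubulin, had 5 of 5 on a bin that also holds Flot1. No pair of the lysosome or housekeeping lists was clearly lower, 0 of 64 (which allows up to 5.60%) and 0 of 33 (up to 10.6%).

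Some genes had no sham interaction in common with day 6 at all. Among 4184 genes with at least 3 sham interactions, 1241 had none in both lists (29.7%). Those with the most kept-anchor pairs were Rapgef2 with 17, Rapgef5 with 14, Sh3kbp1 with 13, Ccdc63 and Camk2a with 12 each, Zc3h7a, Zdhhc18 and Ly86 with 10 each, and Nav1 and Inpp5d with 9 each. These numbers depend on the thresholds of the lists. With a q-value limit of 1e-05 for both lists Rapgef2, Rapgef5, Zc3h7a and Nav1 had 0 and the other 6 genes had 1 to 6, and the 10 genes had 0 to 9 once the day 6 calls were cut to as many as in sham. These genes were not bare at day 6, where they had between 6 and 29 interactions. Rapgef2, which encodes an activator of Rap GTPases, had 264 contacts in its 17 pairs against a summed bound of 222. For none of the 17 was the sham count above the bound beyond counting error, which leaves the size of any drop unknown. It had 26 interactions at day 6 with 518 contacts. Its 6 pairs with Fnip2 had 11 to 18 contacts in sham, and 6 other pairs joined the genes at day 6 with 14 to 27.

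Nav1 stood apart within this group, since 6 of its 9 kept-anchor pairs were lower at day 6 beyond unscaled counting error. The unscaled share over all kept-anchor pairs was 30.1%, and with scaling 1 of the 9 was clearly lower. The 6 pairs shared the bin at chr1:135540001-135550000, which had 7 interactions in sham and 1 at day 6, while its relative coverage went from 1.56 to 1.23. Within the gene, 7 sham interactions had 229 contacts, and 8 other interactions at day 6 had 423. Over all interactions on Nav1 the contacts were 289 in sham and 733 at day 6. Camk2a, a kinase gene better known from neurons, lies between Cd74 and Csf1r. All of its 12 sham interactions were kept-anchor pairs, and 2 of them led to Cd74, with 21 and 23 contacts against bounds of 17 and 16. No Camk2a and Cd74 pair was called at day 6, where Camk2a had 6 interactions. Inpp5d, the gene of the phosphatase SHIP1 of myeloid cells, had 4 pairs with Ngef of 16 to 44 contacts in sham, and 6 other pairs of 25 to 41 contacts joined the genes at day 6. Ly86, whose product is the partner of a relative of the Toll-like receptors, had 8 pairs with Rreb1 of 12 to 18 contacts. Day 6 pairs of 18 and 27 contacts, 2 in all, joined them.

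Kept-anchor pairs were spread thinly over bins. Of 13670 bins 7911 had a single one, 5407 had 2 to 4 and 352 had at least 5. The most on any bin was 10, on a bin of Slc29a3, which encodes a lysosomal nucleoside transporter (chr10:60740001-60750000), and on a bin without a gene at chr13:37460001-37470000. The Slc29a3 bin had 11 interactions in sham and 5 at day 6, with 1 in common, and relative coverage of 1.61 and 1.92. The bin on chromosome 13 had 13 and 5, with 2 in common, and coverage of 1.47 and 1.13. Those with 9 included bins of Dock4, 2 bins of Rad51b, a bin of Maml2 and a bin of chromosome 8 without a gene. The bin of Maml2, a coactivator gene of Notch signalling, had 10 interactions in sham and 1 at day 6, none in common, at a relative coverage of 1.09 and 0.827.

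Around the bin on chromosome 13, a window of 800 kb from Ly86 to beyond Rreb1 (chr13:37300001-38100000) held 77 sham interactions, of which 67 were kept-anchor pairs, 8 were in both lists and 2 had lost an anchor. The 67 had 12 to 30 contacts each, and 29 of them had a day 6 pair within 1 bin. At day 6 the window held 79 interactions. The window thus held similar numbers of interactions, beside 19061 in sham and 42905 at day 6 over the whole lists. The pairs of bins were mostly others. Over the whole sham list, kept-anchor pairs were 61.3%. Of the 67, 10 were lower at day 6 beyond unscaled counting error (14.9%, beside 30.1% of all kept-anchor pairs) and 1 beyond scaled (1.49%, beside 3.53%). The window was chosen after its values were seen.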

How the data were processed

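The data are 1 list of called interactions per library. Reads were processed with HiC-Pro 3.1.0 on mm10, which is GRCm38, per the submitters' processing notes. The name of the interaction caller was not given in the sources used here, and the columns are named as in FitHiChIP output. Per the file headers, each interaction joins a pair of 10 kb bins and carries a whole contact count. The deposited coverage of an anchor is a read count, and the deposited bias is a ratio, that coverage over 1 constant per library, called relative coverage. The deposited probability of a contact is a fraction, and the deposited p-values and q-values are those of the authors' caller, with q under 0.001 in both lists.

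Pairs were matched by chromosome and both bins. At each distance the deposited log probability was a linear function of the log relative coverage of both anchors (largest residual 1.65e-09 at day 6), and the deposited p-values were binomial upper tails, recomputed to within 0.00937 on the natural log scale. The call limit is the smallest count whose p-value reaches the largest called at day 6. The limit and the rule for kept-anchor pairs were tested on simulated counts and lists with known answers. Genes were 21887 protein-coding RefSeq genes of GRCm38 with 1 kb on each side. Shares carry exact Clopper-Pearson 95% intervals and counts exact Poisson intervals. The intervals of shares treat interactions as independent, though many share genes or bins, and can be too narrow. Python 3.11.15, numpy 2.4.6, pandas 2.3.3, scipy 1.17.1 and matplotlib 3.10.9 were used.

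Genes and pairs named are the 10 kept-anchor pairs of smallest sham q-value, the 10 of smallest q-value without a day 6 pair within 1 bin, the 10 genes with the most kept-anchor pairs among those with at least 3 sham interactions and none in both lists, up to 3 genes per list, P2ry12, Cx3cr1, Sall1, Csf1r, Tmem119, Spi1 and Jun, and the 5 bins with the most kept-anchor pairs, with the bins tied with the fifth. Genes with clearly lower pairs, pairs of genes and windows were added after their values were seen. The pairs described, the gene lists and the rules were chosen with earlier results of these data known. Gene bins limited to promoters and the comparison of counts with the bound were chosen after the data were seen. One of the 10 strongest pairs and 1 bin are not reported here.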

Additional observations from a re-analysis of the deposited data

How the results depend on the processing

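The lists set most of these values. With a q-value limit of 1e-05 for both lists there were 3743 kept-anchor pairs, with a near day 6 pair in 49.7%, a median distance of 140 kb and 27 contacts. Their sham count reached the day 6 limit in 91.0%, median log2 coverage change was 0.016, a common partner was found in 22.6% and genes at both ends in 58.9%, and 1180 (unscaled) and 75 (scaled) pairs were lower beyond counting error. With that limit for the sham list alone there were 4506, with near pairs in 55.9%, 25 contacts, 99.9% at the day 6 limit, common partners in 35.8% and genes at both ends in 57.1%. Counting ends within 1 bin as the same pair left 6065, of 210 kb and 18 contacts, with 84.0% at the limit, a coverage change of −0.047, common partners in 26.4%, 1251 and 127 lower pairs, and 2 of 12 gene lists above the share of all genes in place of 6. Near pairs within 2 bins were found for 66.8%. With the day 6 list shortened to the sham length, near pairs were found for 40.8%, with 140 kb, 22 contacts, 52.8% at the limit, a coverage change of 0.027, common partners in 18.6%, genes at both ends in 62.3%, and 1043 and 48 lower pairs. Keeping only anchors with at least 2 day 6 interactions gave near pairs in 53.7%, 22 contacts, a coverage change of 0.024, common partners in 41.7% and genes at both ends in 62.2%. Scaling the sham count took the share at the limit to 18.3%. Genes lay at both ends of 19.8% with gene ends only, 67.2% with 5 kb on each side and 10.6% with promoter bins. The sign of the small coverage change thus depends on the setting. Of 62 such recomputed values 44 moved beyond counting error (counts, beyond 1.5 times) and 18 did not. Shares of gene lists moved in 64 recomputations and not in 95, and the numbers of kept-anchor pairs on the named genes in 227 and not in 173. The causes of these shifts, beyond the fewer pairs that each setting leaves, were not tested.

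No paired analysis was possible because each condition had 1 library. Depth limits what absence shows: the day 6 count is known only to lie below a limit with a median of 15 contacts, and long pairs have sham counts near that limit. Differences between the libraries cannot be told apart from differences between the conditions.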

Other observations

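The share of kept-anchor pairs was similar over the autosomes, 61.7% in all and between 58.3% on chromosome 11 and 65.9% on chromosome 17. The X chromosome had 264 kept-anchor pairs among 545 sham interactions, 48.4% (95% exact binomial interval 44.2 to 52.7%), with 29.0% in both lists and 22.6% with a lost anchor. The median log2 ratio of relative coverage, day 6 over sham, was −0.08 at the 420 anchors that the lists have in common on X, and between −0.12 and 0.03 on the autosomes.

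Without a limit on pairs in both lists, the genes with the most kept-anchor pairs were Rreb1 with 48, Ldlrad4 with 47, Rad51b with 41 and Srgap2 with 40, which was seen after the counts were made. Srgap2, which encodes a regulator of the actin skeleton, also had the most clearly lower pairs of any gene, 5. Next came Ankrd11, Car5a, Cask, Clip2, Pde3b, Poc1a and Qk with 4 each, and 513 genes had at least 1. Another sham pair lay within 1 bin of 75.3% of the clearly lower pairs, of 66.7% of pairs in both lists and of 45.6% of all kept-anchor pairs. On genes that mark other cells, clearly lower pairs were seen once each at Plac8 of monocytes (41 contacts in sham, at most 17 at day 6), Slc17a7 of neurons (45 and at most 19) and Gfap of astrocytes (54 and at most 25). The Gfap bin also holds Eftud2, Ccdc103 and Fam187a, and the Slc17a7 bin also holds Pih1d1.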
